A study of Homo sapiens with 2 samples.

Results

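LINC symbols are given to long intergenic non-coding RNA genes, which lie between protein-coding genes and have no recognised protein product. On the array read here, 532 transcript clusters carried 1 such symbol in the platform annotation and an autosomal identifier, out of 67524 clusters in all and 64838 without X and Y identifiers. They represent 520 symbols. Of 554 clusters with 1 LINC symbol, 21 had X or Y identifiers and 1, LINC00534 (difference 2.55), was left out by the selection rule. The rule is worded by annotation, except that LINC00534 was left out by name. Members were chosen with earlier results of these data known. A transcript cluster is the array's unit for 1 gene or transcribed region, and its signal summarises all probes placed in it.

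The study used 2 human ovarian carcinoma lines. OAW42 is sensitive to cisplatin, and OAW42-R is a resistant derivative of it, obtained by repeated exposure to cisplatin with recovery between exposures. Both were cultured in DMEM medium with serum and insulin and without drug, and total RNA of 1 sample per line was hybridised to 1 Affymetrix human transcriptome array. Each value is therefore a single reading without a measured error, the lines could not be tested against each other, and the state of 1 culture cannot be told apart from the line. Fewer cells of a type and less RNA per cell cannot be told apart either. Differences are log2 signal in OAW42-R minus that in OAW42, so that 1 stands for 2-fold and 0.58 for 1.5-fold. Median signals over all clusters were 6.34 in OAW42-R and 6.30 in OAW42, and a signal under the median of its array is called near background here. The label of an epithelial tumour was checked on markers: 7 of 9 epithelial genes, PAX8 (11.67 and 11.40) and CDH1 (11.14 and 11.07) among them, were above the 75th percentile on both arrays. Of 5 fibroblast genes only COL1A1 was (7.83 and 7.91), and of 4 leukocyte and 3 endothelial genes none was. Counted on their brighter array, 3 of the 5 fibroblast, 2 of the 4 leukocyte and 2 of the 3 endothelial genes reached the median, the highest of the last lists being CD14 (6.43 and 6.36) and VWF (6.77 and 6.82). DCN and LUM, PTPRC (4.21 and 4.25) and LYZ, and PECAM1 were near background. Since markers of other cell types also reached the median, a signal called above background here is no proof that a gene is expressed.

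Long intergenic RNAs are transcribed mostly by RNA polymerase II, and many are spliced and polyadenylated like messenger RNAs. Some act in the nucleus on neighbouring genes, some act in the cytoplasm on messenger RNAs, microRNAs or proteins, and for most LINC genes no function is known. As a class they are transcribed at lower levels and in fewer cell types than protein-coding genes. A few have since been found to be microRNA precursors or to encode small proteins, and have been renamed. RefSeq matched all 532 clusters, to 515 genes. It kept the symbol of 503 clusters and has renamed 29, and it types 519 as long non-coding, 11 as protein-coding and 2 as pseudogenes.

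The promoter windows of the differing genes are shown first, and they varied among themselves in base composition. RefSeq windows (assembly GRCh38.p14, 250 bases before to 50 after the gene start) were found for 357 of 503 LINC genes placed on autosomes. Among the LINC genes that passed 1.5-fold and were above background, 5 had a window. Capitals mark matches on either strand to 5 motifs, which may overlap. TATAAA is the TATA box, and CCAAT is the box of that name. GGGCGG is the GC box. TGANTCA is the motif known for AP-1, and ACGTG is the core of hypoxia response elements. Each window is written 5′ to 3′ on the strand of its gene. LINC00626 is at chr1:168786691-168786990 (+), LINC03034 at chr15:31230813-31231112 (-), LINC01569 at chr16:4253740-4254039 (-), LINC00173 at chr12:116533172-116533471 (+) and LINC00488 at chr3:109177915-109178214 (+).
LINC00626: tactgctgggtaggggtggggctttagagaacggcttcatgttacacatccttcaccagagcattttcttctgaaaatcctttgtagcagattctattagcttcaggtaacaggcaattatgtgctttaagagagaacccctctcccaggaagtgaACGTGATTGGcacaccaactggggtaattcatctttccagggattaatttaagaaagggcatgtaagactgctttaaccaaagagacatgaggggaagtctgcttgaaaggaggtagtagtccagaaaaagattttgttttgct
LINC03034: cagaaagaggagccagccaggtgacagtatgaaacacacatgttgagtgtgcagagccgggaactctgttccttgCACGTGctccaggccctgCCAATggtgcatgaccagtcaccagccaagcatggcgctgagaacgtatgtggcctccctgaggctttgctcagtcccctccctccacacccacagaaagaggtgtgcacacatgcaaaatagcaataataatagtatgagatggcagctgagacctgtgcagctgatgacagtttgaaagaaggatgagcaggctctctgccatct
LINC01569: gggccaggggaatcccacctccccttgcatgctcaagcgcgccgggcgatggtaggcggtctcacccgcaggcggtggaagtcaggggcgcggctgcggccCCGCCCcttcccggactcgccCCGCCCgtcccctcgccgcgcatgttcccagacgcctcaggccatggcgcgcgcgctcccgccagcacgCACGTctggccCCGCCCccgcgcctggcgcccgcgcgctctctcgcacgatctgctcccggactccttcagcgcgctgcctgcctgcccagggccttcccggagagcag
LINC00173: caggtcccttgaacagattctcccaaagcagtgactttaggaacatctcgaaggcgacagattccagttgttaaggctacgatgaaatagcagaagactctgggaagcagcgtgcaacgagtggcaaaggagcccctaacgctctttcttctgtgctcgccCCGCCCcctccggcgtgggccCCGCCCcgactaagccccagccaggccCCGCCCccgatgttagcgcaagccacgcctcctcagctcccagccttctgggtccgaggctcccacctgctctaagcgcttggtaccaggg
LINC00488: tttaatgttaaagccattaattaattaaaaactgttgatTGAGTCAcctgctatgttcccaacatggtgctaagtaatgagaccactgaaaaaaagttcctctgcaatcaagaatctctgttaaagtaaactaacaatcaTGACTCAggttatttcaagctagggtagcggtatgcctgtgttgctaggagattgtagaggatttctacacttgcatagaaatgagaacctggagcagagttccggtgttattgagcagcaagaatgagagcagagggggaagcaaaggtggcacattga
The windows of LINC01569 and LINC00173 are rich in CpG dinucleotides, with 39 and 18 CpG and 76.0% and 61.0% G and C, and each holds GGGCGG 3 times. The windows of LINC00626, LINC03034 and LINC00488 hold 2, 4 and 2 CpG. LINC00626 has a CCAAT match next to an ACGTG match, LINC03034 has ACGTG on both strands of 1 palindrome and 1 CCAAT, and LINC00488 has TGANTCA at 2 places. TGANTCA was present in 14.8% of LINC windows and 7.76% of the 27305 windows in the table, ACGTG in 24.6% and 21.6%, and CCAAT in 35.6% and 35.7%. GGGCGG was present in 23.5% and 44.6%, and TATAAA in 13.7% and 12.0%. A match is a description of letters, not a binding site.

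The first question was how strongly LINC clusters were detected in each line. Most were near background: 35.9% reached the array median in OAW42-R and 36.5% in OAW42, against 76.7% and 77.3% of protein-coding clusters. Antisense clusters reached it in 44.2% and 44.7%, and other long non-coding clusters in 47.4% and 46.1%. Both arrays were at or above their median for 185 LINC clusters, only OAW42-R for 6 (1.13%), only OAW42 for 9 (1.69%) and neither for 332 (62.4%). Over all clusters, OAW42-R alone reached it for 1.41%, OAW42 alone for 1.49% and neither for 48.2%. The median LINC signal was 5.79 in OAW42-R and 5.73 in OAW42, with a range of 2.97 to 12.71 and 2.69 to 12.94. Few LINC clusters reached the median in 1 line only, as was so for the array as a whole. Across the 532 clusters the Pearson correlation of the arrays was 0.988, a description of clusters that share 1 pair of arrays and their normalisation.

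The brightest LINC cluster in both lines was LINC00273, TC16000401.hg.1, at 12.71 in OAW42-R against 12.94 in OAW42 (-0.23). A second LINC00273 cluster, TC16001076.hg.1, read 8.50 and 8.55. LINC01000 read 10.81 and 10.64 (0.17), LINC01001 read 10.18 and 10.15 (0.03), and the brighter cluster of LINC00963 read 10.13 and 9.97 (0.16). The next were LINC01002 (0.06), LINC00999 (0.07), LINC00265 (-0.03), LINC03009 (0.14) and LINC01061 (0.13), so 9 of the 10 brightest lay within 1.5-fold. The exception was LINC02582. Signals of different clusters depend on their probes, so this order is not an order of abundance.

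The second question was which LINC RNAs differed between the resistant and the sensitive line. In OAW42-R the signals of LINC00626 (4.44-fold) and LINC02582 (4.26-fold) were higher than in OAW42, with a lower signal for LINC00488 (2.11-fold), and these 3 were the LINC clusters past 2-fold. Among all clusters without X and Y identifiers, 0.484% were higher and 0.17% lower by 2-fold or more, against 0.376% and 0.188% of LINC clusters. The LINC shares were close to those of the array as a whole. LINC00534, left out by name, is not counted in them, and with it 3 LINC clusters would be 2-fold higher. At 1.5-fold, 12 LINC clusters were higher and 1 was lower, which is 2.26% and 0.188%, against 1.75% and 0.699% of all clusters. The remaining 519 clusters (97.6%) lay within 1.5-fold.

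**Figure D1:**
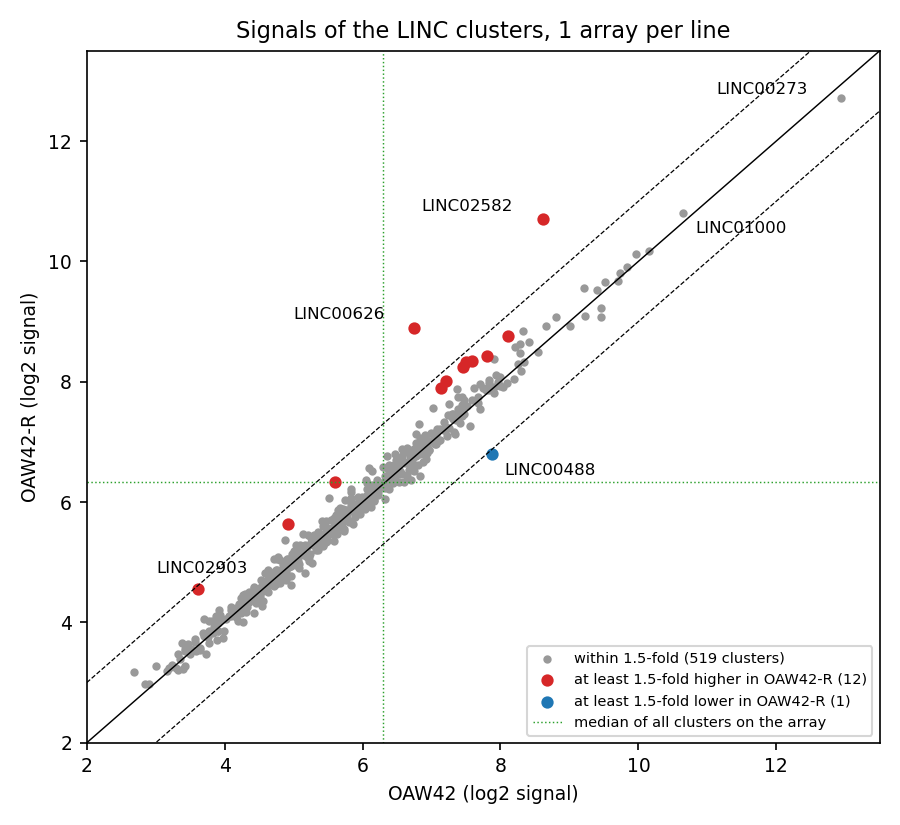
Log2 signal of each of the 532 LINC clusters in OAW42 (x axis) and OAW42-R (y axis), 1 array per line. The solid line marks equal signals, the dashed lines 2-fold differences and the dotted lines the array medians (6.30 and 6.34); LINC00626 and LINC02582 lie above the upper dashed line and LINC00488 below the lower one.

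LINC00626, cluster TC01001470.hg.1 on chromosome 1, read 8.90 in OAW42-R against 6.75 in OAW42, which is 2.15 higher. Its OAW42 signal was just above the array median. In order of size it ranked 45 among the positive differences of all clusters. LINC02582, cluster TC18000245.hg.1 on chromosome 18, read 10.70 in OAW42-R against 8.61 in OAW42, which is 2.09 higher and ranked 50. LINC02582 has been studied in the response of breast cancer cells to radiation, and it was well above background in both lines. LINC00488, cluster TC03000553.hg.1 on chromosome 3, read 6.80 in OAW42-R against 7.88 in OAW42 (-1.08), which ranked 85 among the negative differences. All 3 were above the array median in both lines.

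Just under the 2-fold line came LINC02903, which read 4.55 in OAW42-R and 3.62 in OAW42 (0.93). Both levels were near background, so this difference is uncertain. LINC02274, with 5.64 and 4.92 (0.72), was near background in both lines as well, and LINC01301, with 6.34 and 5.60 (0.74), reached the array median in OAW42-R only. The other 7 positive differences past 1.5-fold had both levels above the median.

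LINC00963, an RNA studied in prostate cancer, had 2 clusters: TC09000718.hg.1 read 8.32 in OAW42-R and 7.50 in OAW42 (0.82), and the brighter TC09000719.hg.1 differed by 0.16, so the difference was not shared by the whole locus. LINC00342, studied in lung cancer, read 8.02 and 7.21 (0.81). LINC01963 read 8.25 and 7.46 (0.79). These 3 are of like size and about 1.75-fold.

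LINC00969, now named MIR570HG as the host of the microRNA MIR570, read 8.35 and 7.59 (0.76). LINC03034 read 7.90 and 7.14 (0.76), LINC01569 read 8.76 and 8.11 (0.65), and LINC00173, an RNA studied in blood cell differentiation, read 8.43 and 7.81 (0.62). None of these came near a 2-fold difference. In the plot of the 13 clusters past 1.5-fold, 12 move to the right from OAW42 to OAW42-R and 1 to the left.

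**Figure D2:**
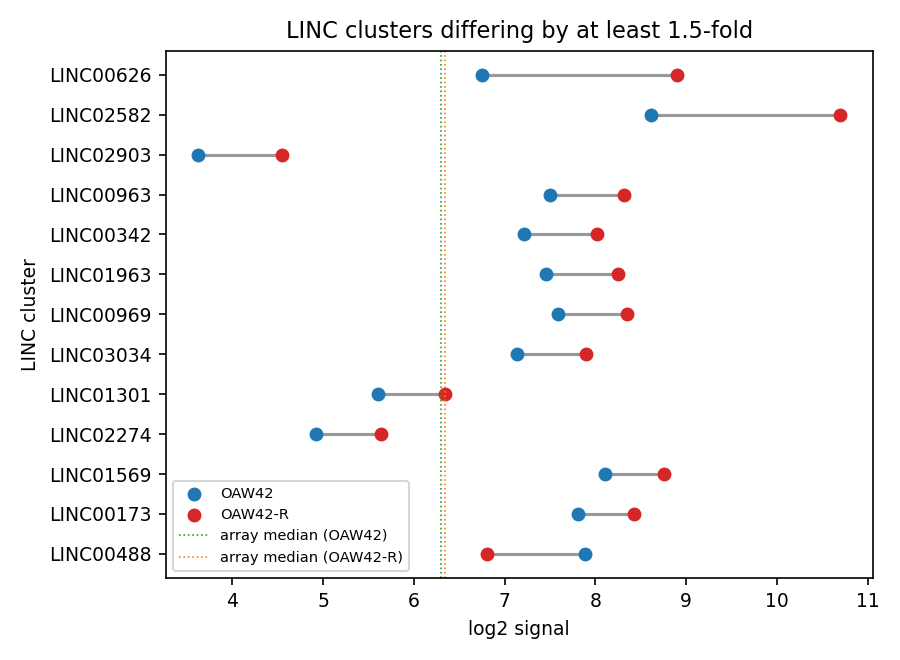
Log2 signal (x axis) of the 13 LINC clusters that differed by at least 1.5-fold, 1 per row and sorted by difference, with OAW42 in blue and OAW42-R in red. Grey lines join the readings and dotted lines mark the array medians; LINC02903 and LINC02274 lie below both medians, and LINC00488 alone is lower in OAW42-R.

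Below 1.5-fold the largest positive differences above background were those of LINC00664 (7.56 and 7.02, difference 0.54), LINC02870 (8.84 and 8.32, 0.52), LINC03040 (7.88 and 7.37, 0.51), LINC00471 (7.30 and 6.82, 0.48) and LINC00501 (6.57 and 6.09, 0.48). LINC00458, an RNA known from pluripotent stem cells, had 6.06 and 5.51 (0.55), near background in both. After LINC00488 the next negative differences above background were much smaller. They were those of LINC00260 with 6.44 in OAW42-R and 6.84 in OAW42 (-0.40), LINC00472, an RNA studied in breast cancer, with 9.07 and 9.46 (-0.39), LINC03033 with 6.37 and 6.70 (-0.33) and LINC02716 with 7.27 and 7.56 (-0.29).

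The other 10 of the 15 most negative clusters above background lay between -0.27 and -0.20. They were LINC01555, LINC00372, LINC00606, LINC00958, LINC00273, LINC00552, LINC00624, LINC01164, LINC00677 and LINC00517. Differences of this size cannot be set against any measured error in these data. LINC00958, an RNA studied in bladder cancer, was the brightest of them after LINC00273, with 9.22 and 9.46.

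Taken over all members, 315 differences were positive, 188 negative and 29 zero, with a median of 0.04 and a central 95% of -0.25 to 0.53. The median over all clusters was 0.02, with a central 95% of -0.37 to 0.51, and the medians of antisense, other long non-coding and protein-coding clusters were 0.03, 0.02 and 0.00. Of all clusters 53.1% were positive, against 59.2% of LINC clusters.

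How the bright LINC clusters compared depended on how they were chosen. By the mean of both arrays, 48 LINC clusters lay above the 75th percentile of that mean. Their median difference was 0.14, with 34 positive and 14 negative, against 0.01 for all 16230 clusters of that class. Of the 48, 7 were at least 1.5-fold higher (2.59% of all clusters there) and 0 lower (1.22%), and at 2-fold 2 were higher (0.813%) and 0 lower (0.259%). The 7 were LINC00626, LINC02582, LINC00963, LINC01963, LINC00969, LINC01569 and LINC00173. Of these 7, 4 (LINC00626, LINC00963, LINC01963 and LINC00969) were under the 75th percentile in OAW42 and entered through their OAW42-R signal, while LINC00488, at 7.88 in OAW42, fell out. Chosen on the OAW42 signal alone, 44 LINC clusters had a median of 0.07, with 3 at least 1.5-fold higher (1.92% of all clusters so chosen) and 1 lower (1.44%). These counts describe the selections and are not read as a trait of bright LINC clusters.

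With the class set by the mean, antisense clusters above the 75th percentile had a median of 0.04 (n = 69), other long non-coding clusters one of 0.01 (n = 97) and protein-coding clusters one of -0.02 (n = 8583). Between the 50th and the 75th percentile the LINC median was 0.03 (n = 144), and below the 50th it was 0.04 (n = 340), against 0.01 and 0.03 for all clusters. When members were instead kept where the brighter array reached its median, 200 remained, with 2 higher and 1 lower at 2-fold (0.821% and 0.277% of all clusters so kept) and 10 and 1 at 1.5-fold (2.63% and 1.03%). That rule too lets a cluster in through the array where it is high, so these counts are descriptions only.

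**Figure D3:**
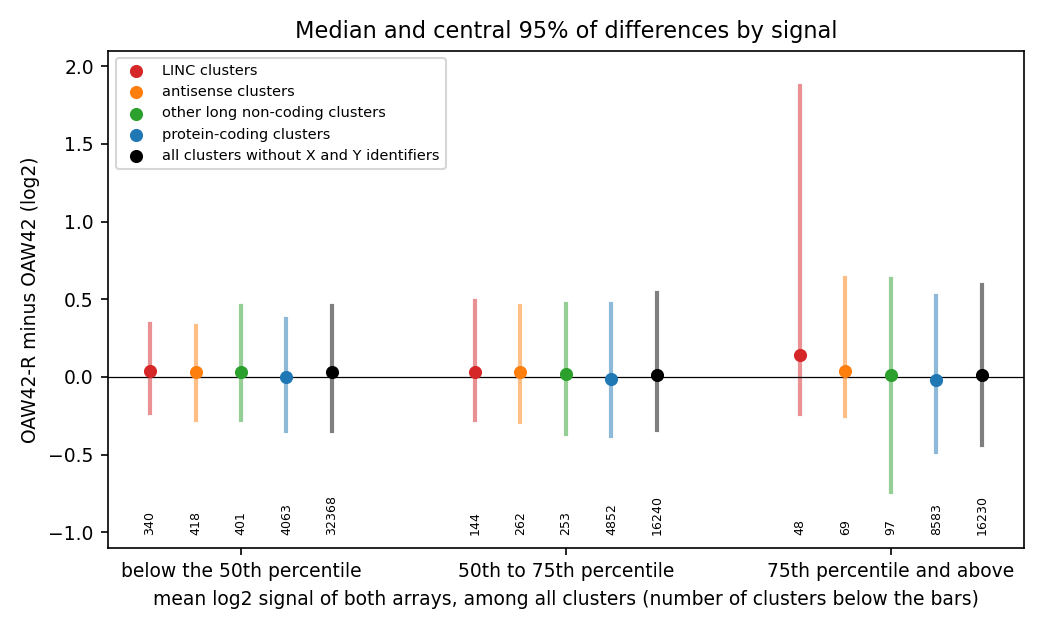
Median (point) and central 95% (bar) of the log2 difference OAW42-R minus OAW42 (y axis) for 5 kinds of clusters, in 3 classes of mean signal (x axis), with the number of clusters beneath. The medians lie within 0.04 of 0 except that of the 48 bright LINC clusters, at 0.14, a class that 4 of its 7 clusters past 1.5-fold entered through their OAW42-R signal.

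Of 30 listed LINC RNAs with a cancer literature, 23 were members, in 25 clusters. Their median difference was 0.10, with 3 clusters at least 1.5-fold higher (LINC00626, LINC00963 and LINC00342) and 1 lower (LINC00488), against the shares of all clusters given above. The list was put together with earlier results of these data known and is no independent evidence of a direction. LINC00152, now named CYTOR after its part in the cytoskeleton, read 9.08 in OAW42-R and 8.81 in OAW42 (0.27). LINC00857, studied in lung cancer, read 8.37 and 7.91 (0.46), and LINC00665, studied in liver cancer, 8.57 and 8.21 (0.36).

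LINC00339 read 7.75 in OAW42-R and 7.44 in OAW42 (0.31), and LINC00473, a target of cAMP signalling, read 7.46 and 7.30 (0.16). LINC00520 read 6.37 and 6.05 (0.32), the latter near background. LINC00467 (0.10), LINC00667 (-0.03 in its brighter cluster), LINC00511 (-0.09), LINC00324 (-0.10) and LINC00662 (-0.11) were close to equal. LINC00261, a neighbour of FOXA2 in endoderm, read 5.12 and 5.13, LINC00460 read 5.09 and 5.22 and LINC00312 read 4.12 and 3.94, all near background. LINC00707, LINC01194 and LINC00462 were near background as well.

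RefSeq now assigns 11 of the clusters to protein-coding genes. They ranged from -0.27 to 0.22 with a median of 0.01. None passed 1.5-fold, which 2.45% of all clusters did in either direction, so a count of 0 among 11 is near that share. LINC00961, which encodes SPAAR, a small protein that tunes the mTORC1 response to amino acids, read 6.67 and 6.66. LINC00948, now MRLN, encodes myoregulin, a muscle inhibitor of the calcium pump SERCA, and it read 4.68 and 4.64, near background. LINC00610 (COMMD9, 0.22) and LINC00959 (C10orf143, 0.21) had the highest differences and LINC00372 (C13orf42, -0.27) and LINC00341 (SYNE3, -0.23) the lowest. Between these lay LINC00950 (TMEM8B, 0.13), LINC00371 (C13orf42, 0.03), LINC00594 (DISP2, -0.09), LINC00444 (SUCLA2, -0.11) and LINC00083 (CLEC20A, -0.12).

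MicroRNA host genes formed the smallest group. Apart from LINC00969, only LINC00966, now MIR124-2HG, was renamed as one, and it read 5.02 and 5.22 (-0.20), near background. A search by RefSeq position found microRNA hairpins inside 2 LINC genes, MIR570 inside LINC00969 and MIRLET7D inside LINC02603. It returned none for LINC00966 despite its current name, so the search may have missed others. The cluster named MIR570 read 7.72 in OAW42-R against 7.07 in OAW42 (0.65), beside the 0.76 of its host. The clusters of LINC00969 and MIR570 were thus higher together. Whether their probes read the same precursor RNA was not tested. The array does not measure the mature products. They are shown here as RefSeq gives them (GRCh38.p14, plus strand) with the seed, bases 2 to 8, in capitals; the 5p arm is at chr3:195699425-195699446 and the 3p arm at chr3:195699460-195699481.
hsa-miR-570-5p: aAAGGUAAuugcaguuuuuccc
hsa-miR-570-3p: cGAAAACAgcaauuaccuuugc
The seeds of the 2 arms differ. LINC02603 read 5.65 on both arrays, and the cluster of MIRLET7D, a member of the let-7 family, read 6.03 and 6.10 (-0.07), all near background.

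Where a symbol had several clusters, these mostly read alike. There were 11 such symbols with 23 clusters, and the clusters of 1 symbol spanned more than 0.3 in 2 of them, LINC00963 (0.66) and LINC00687 (0.39). LINC00687 and LINC00448 had clusters of opposite sign, with 1 or both near background. The 3 clusters of LINC02210 on chromosome 17, 1 of them on an alternative haplotype, differed by 0.32 to 0.38, and the 2 of LINC00960 by 0.25 and 0.26. Clusters of near-identical sequence can share probes, so these are not separate measurements.

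The third question was whether LINC genes differed together with the protein-coding genes beside them. Near LINC00626, DPT, which encodes the matrix protein dermatopontin, read 6.67 in OAW42-R and 5.75 in OAW42 (0.92), while ATP1B1, a sodium pump subunit on the other side, read 11.52 and 11.32 (0.20). Near LINC00488, DPPA2, a pluripotency-associated gene, read 8.55 and 9.34 (-0.79), while MORC1 was near background at 4.05 and 3.95 (0.10). The neighbours of LINC02582 did not share its difference: NETO1, at 4.63 and 4.71, was near background and FBXO15 read 6.38 and 6.43 (-0.05). LINC00626 and LINC00488 thus each had 1 neighbour with a difference of the same sign past 1.5-fold, but the OAW42 level of DPT was near background.

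Opposite pairs occurred too. LINC01301 (0.74) lies beside CA8, a carbonic anhydrase-related gene, which read 7.26 and 8.33 (-1.07). LINC00606 (-0.24) lies beside the calcium pump gene ATP2B2, which read 8.58 and 7.71 (0.87). LINC00472 (-0.39) lies beside RIMS1, a gene of synaptic vesicle release, which read 5.53 and 6.47 (-0.94), a difference of the same sign with the OAW42-R level near background, and beside OGFRL1 (0.17).

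Around the clusters past 1.5-fold from LINC00342 on, other than LINC01301, differences of the nearest protein-coding genes were smaller. ANKRD36C next to LINC00342 read 10.13 and 9.64 (0.49), and MUC20 next to LINC00969 read 8.43 and 7.89 (0.54). The genes beside LINC01963 (XRCC5 -0.12, MARCHF4 0.07), LINC03034 (TRPM1 0.03, KLF13 0.21), LINC01569 (SRL 0.02, TFAP4 0.01), LINC00173 (MED13L 0.01, MAP1LC3B2 0.21), LINC02903 (DNAJB9 0.03, IMMP2L 0.43) and LINC02274 (MIDEAS -0.12, PTGR2 0.23) stayed within 1.5-fold. Clusters next to these in the order of identifiers, which need not be the nearest genes, could differ more. The unnamed cluster before LINC01963 read 7.90 and 7.21 (0.69), and NRCAM before LINC02903 read 8.28 and 9.91 (-1.63). ANKRD36C and MUC20 belong to families with close copies, whose probes cannot always be told apart.

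Among the smaller differences, both genes beside LINC00664 on chromosome 19, the zinc finger genes ZNF493 and ZNF429, differed by 0.28. Beside LINC03040, VEGFA, the vascular growth factor, read 8.95 and 8.91 (0.04) and MRPL14 differed by 0.15. Beside LINC03033, HIF1A, the oxygen-sensitive transcription factor, read 12.68 and 12.78 (-0.10) and TMEM30B differed by -0.02. No gene of these pairs passed 1.5-fold.

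Over all loci, LINC differences and those of their neighbours were weakly related at most. The Pearson correlation of the LINC difference with the mean difference of the nearest protein-coding gene on each side was 0.09 and Spearman's rho 0.08 across 494 loci, and 0.21 across the 181 loci whose LINC gene reached the array median. With all 3 genes above background it was 0.19 (n = 138). Signs were alike at 234 of the 494 loci, 97 of the 181 and 71 of the 138. These are descriptions across loci of 1 pair of arrays, not tests. Of the 24 neighbours of the 12 LINC genes past 1.5-fold, 3 were past 1.5-fold themselves (DPT, CA8 and DPPA2), and of all 997 neighbours 47 were.

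**Figure D4:**
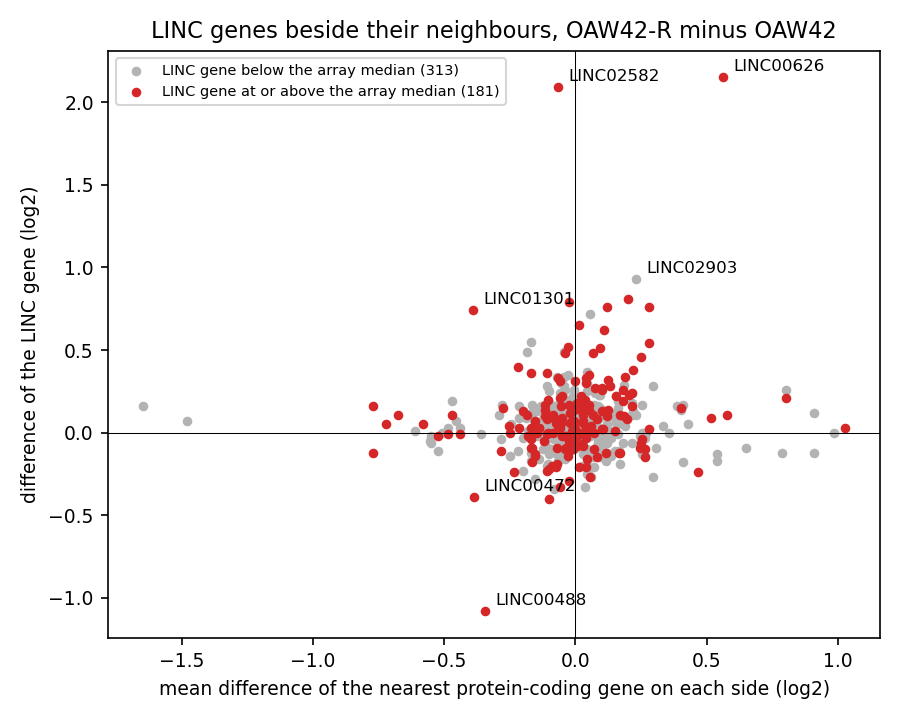
Difference of each LINC gene (y axis, log2, OAW42-R minus OAW42) against the mean difference of the nearest protein-coding gene on each side (x axis, log2), for 494 loci, with LINC genes at or above the array median in red. LINC00626 lies at the upper right, LINC00488 at the lower left and LINC02582 near 0 on the x axis.

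By RefSeq, 38 of the 503 placed LINC genes (7.55%) overlap a protein-coding gene and so are not intergenic in the strict sense. Of these 38, 52.6% were above background against 35.5% of the other 465, and 0 passed 1.5-fold against 12 of the others, where 2.45% of all clusters passed it. The medians were 0.01 and 0.04. LINC00260, the second most negative cluster above background, overlaps ATP2B4, a calcium pump gene that read 8.70 in OAW42-R and 8.88 in OAW42 (-0.18).

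The base composition of the start region went with the signal of the LINC cluster, while median differences between the lines were small in both classes. Signals of different clusters depend on their probes, so whether RNA levels differed between the classes was not tested. A window was called CpG-rich at a G and C share of at least 50% and an observed to expected CpG ratio of at least 0.6. Of the 357 LINC windows 21.0% were CpG-rich, against 63.4% of protein-coding windows. The 75 LINC genes with a CpG-rich window had a median signal of 6.81 on both arrays, and 65.3% were above background. The 282 others had medians of 5.57 and 5.55, and 30.5% were above background. Median differences were 0.01 and 0.05. Past 1.5-fold, 2 of the 75 were higher, and of the 282 others 2 were higher and 1 lower. Of all clusters 2.45% passed it in either direction, and counts this small cannot compare the classes.

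A divergent protein-coding start within 1000 bases on the opposite strand was found for 7 LINC genes, and 6 of them were above background, against 36.9% of the 350 other LINC genes with a window. A set of 7 genes is too small to compare these shares, and signals of different clusters depend on their probes. The differences of the 7 genes ran from -0.21 to 0.11. LINC00235, with 8.04 and 8.19 (-0.15), shares its start region with CAPN15 (0.06). LINC00205, with 7.81 and 7.90 (-0.09), shares one with POFUT2 (0.05), the enzyme that fucosylates thrombospondin repeats. The signs were alike in 2 of the 7 pairs.

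LINC clusters were spread unevenly over the chromosomes. Chromosome 13 held 75, which is 4.37% of its clusters, and 21.3% of these were above background, against 34.5% of all clusters of the chromosome. Their differences ran from -0.27 to 0.55 with a median of 0.04, equal to that of all clusters of the chromosome. Chromosome 15 had a median of -0.08 over 20 LINC clusters, 60.0% of them negative, where all its clusters had a median of 0.04 and 37.7% were negative. Of those 20, 4 were above background, with a median of 0.07, so the negative median came from clusters near background. LINC03034 (0.76) was among the 8 positive ones.

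Chromosome 22 had 7 LINC clusters with a median of -0.02, beside -0.07 for all its clusters, of which 63.8% were negative. Chromosome 6 had the highest LINC median, 0.10 over 22 clusters, against 0.01 for all its clusters. Of those 22, 9 were above background, with a median of 0.06. The 3 differences past 2-fold lay on chromosomes 1, 18 and 3. The 12 positive differences past 1.5-fold were spread over 11 chromosomes, with a pair, LINC00342 and LINC01963, on chromosome 2.

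**Figure D5:**
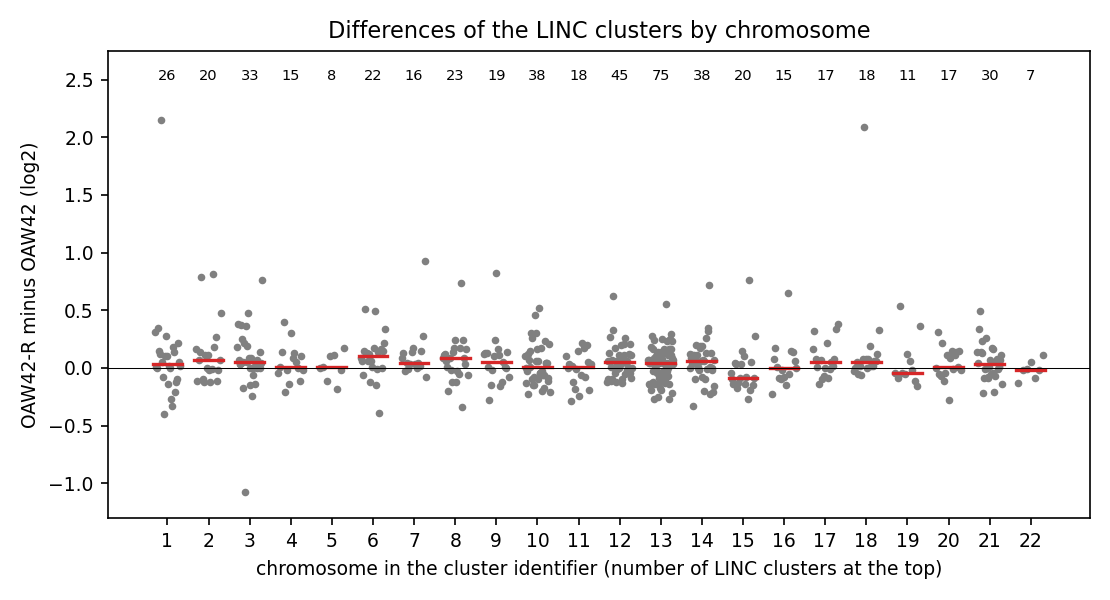
Difference OAW42-R minus OAW42 (y axis, log2) of each LINC cluster by the chromosome in its identifier (x axis), with the number of clusters at the top and the median of each chromosome as a red line. Medians lie between -0.08 on chromosome 15 and 0.10 on chromosome 6, and LINC00626, LINC02582 and LINC00488 stand apart on chromosomes 1, 18 and 3.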

How the data were processed

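Total RNA of 1 sample per line was labelled as cDNA and hybridised to 1 array each. The authors normalised the arrays with RMA and deposited each cluster's signal on a log2 scale, to 2 decimals. For the array's annotation release, genome build and RMA version, nothing was given in the sources used here. RMA makes arrays alike in distribution and compresses folds near background. With 1 array per line the number of arrays limits the precision, and there is no measured error.

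Groups follow the labelled cell line. Members were clusters with exactly 1 LINC symbol. Members and lists were chosen with earlier results of these data known. Symbols were matched to RefSeq genes (GRCh38.p14) by Entrez identifier (412 clusters), symbol (91) or older symbol (29). A gene with several clusters was represented by its brightest. RefSeq gave names, types and gene order, and 1 cluster had another chromosome there than in its identifier. Named clusters were the 15 largest differences each way among those with 1 or both arrays above the 50th percentile, the 10 brightest, listed groups, symbols with several clusters where 1 differed by at least 0.58, and neighbours of the first set. CpG classes, divergent starts, classes of mean signal, and other clusters and genes named below those ranks were chosen after values were seen. Counts at 2-fold and 1.5-fold involved no test. Counting was tested on simulated data. Alternatives were 3 scalings, other floors, other thresholds, 1 cluster per symbol, equal values counted once and current LINC symbols only. Tables were handled with pandas 2.3.3 and numpy 2.4.6 in Python 3.11.15, loess came from statsmodels 0.14.6, rank correlations from scipy 1.17.1 and plots from matplotlib 3.10.9.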

Additional observations from a re-analysis of the deposited data

How the results depend on the processing

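Centring on the median difference, quantile normalisation and loess left the counts past 2-fold at 2 and 1 and those past 1.5-fold at 12 and 1, and moved none of the 40 named clusters by more than 0.06. They left the LINC median 0.02 to 0.03 above that of all clusters, while the share of positive LINC differences was 53.9%, 50.6% and 54.3% in that order, against 59.2% as deposited. The share over all clusters, 53.1% as deposited, was not recomputed under these scalings, so the rescaled LINC shares cannot be set against it. At or above the 75th percentile of mean signal the LINC median was then 0.11, 0.11 and 0.13. At 1.5-fold 12 clusters were counted as higher in place of 2, and at 4-fold 0 as lower in place of 1. Under a floor at the 75th percentile, the LINC median was 0.15 (n = 53), that of the cancer list 0.32 (n = 10) and that of protein-coding members -0.11 (n = 2). This floor let 9 LINC clusters in through OAW42-R only and 1 through OAW42 only, so these medians describe the selection. Choosing bright LINC clusters on OAW42-R alone gave a median of 0.15 (n = 52), on OAW42 alone 0.07 (n = 44) and on both arrays 0.07 (n = 43), alternatives added after seeing the data. With either floor the microRNA host group held LINC00969 alone, at 0.76 in place of 0.28. LINC clusters reached the array median less often by 14.4 and 13.9 percentage points than all clusters in OAW42-R and OAW42, and by 34.5 and 34.3 points than clusters with 1 gene symbol. The correlation with neighbours was 0.11 with neighbours of any type. The other alternatives (1 cluster per symbol, equal values counted once, current LINC symbols, floor at the 50th percentile) left both counts as they were. No paired analysis was possible because each line had a single array, which also means that leaving out a replicate could not be tried. Levels near background limit the differences of 332 of the 532 clusters.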
